A study of Caenorhabditis elegans with 6 samples.

Results

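The genes described here are the lysozymes and saposin-like proteins of the nematode Caenorhabditis elegans, with the antibacterial factor (abf) genes. They were taken by symbol, as the protein-coding genes of the count table whose symbol is lys, ilys, spp or abf followed by a number. This gave 44 of the 46589 genes in the table, 10 of them lys, 5 ilys, 23 spp and 6 abf genes. RNA had been sequenced from whole adult worms of the wild-type strain Bristol N2, 5 days after the L4 larval stage. The 3 bcat-1 RNAi-labelled libraries came from worms given RNA interference (RNAi) against bcat-1, and the 3 control libraries came from worms of the same strain and age whose agent is labelled control. The gene bcat-1 encodes the branched-chain amino acid transferase that acts first in the breakdown of leucine, isoleucine and valine. Per the methods of the study, RNAi was given through E. coli that the worms eat, from young adulthood on, and washing removed progeny every day.

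Worms feed on bacteria, and the proteins of these families act where bacteria are broken open. Lysozymes cut the peptidoglycan of the bacterial wall, the lys genes encoding a type related to lysozymes of protists and the ilys genes an invertebrate type. Saposin-like proteins bind membranes, and some of those encoded by spp genes, called caenopores, open pores in bacterial membranes. The abf genes encode small cysteine-rich antimicrobial peptides, and many genes of all these families are known as intestinal or pharyngeal genes that respond to pathogens.

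The bcat-1 RNAi-labelled libraries held 38347771 to 44137496 counted reads and the controls 32784443 to 43274827. Within groups, pairs of libraries differed by far more than sampling noise (chi-square per degree of freedom 13.8 to 63.0), and RNAi replicate 3 differed most from the others of its group, by 48.1 and 63.0. The targeted gene did not go with the label. Its level was 223, 102 and 287 counts per 1e6 reads (CPM) in the bcat-1 RNAi-labelled libraries, against 135, 135 and 162 CPM in the controls, that is log2 0.50, standard error 0.30, by edgeR's quasi-likelihood test (adjusted p = 0.169 after Benjamini-Hochberg correction). Without RNAi replicate 2 this became a call of higher (adjusted p = 0.00291, against 0.00291 to 0.705 over 16 alternatives). Replicate numbers are names only. Nothing in the labels says that separate cultures were used. The p-values therefore cover the spread among these samples alone, and that spread may be technical. In RNA of whole worms, fewer cells of a type and less RNA per cell cannot be told apart.

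Reads were found for all 44 members, and 40 had enough for the test. A gene was called at an edgeR adjusted p under 0.05, with adjustment over all 16391 genes tested. In the bcat-1 RNAi-labelled libraries 14 members were called higher (35.0%) and 13 lower (32.5%), and 13 were not called. Of all genes tested, 36.0% were called higher and 25.6% lower, so the members' shares lay near the background. The values of the groups did not overlap, with the bcat-1 RNAi-labelled libraries above, for 13 members, against 40.2% of all genes. They lay below the controls without overlap for 11 members, against 31.0% of all genes. A change of at least 2-fold was called higher for 7 members and lower for 6, where the shares of all genes were 24.3% and 2.90%. The median log2 fold change was −0.36 over the tested members and 0.15 over all genes.

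Scaling moved the split of calls. DESeq2 size factors gave 12 members higher and 16 lower (5357 and 5014 of all genes). Upper quartile scaling gave 15 higher and 8 lower (6614 and 2932 of all genes). Division by library size alone gave 16 and 6 (7332 and 1947 of all genes). With the scaling used here, 5907 of all genes were called higher and 4189 lower. The median of all genes was 0.15 with the scaling used, 0.02 with DESeq2 size factors, 0.28 with the upper quartile and 0.40 with library size alone. Relative to that shift the members' median was −0.51, −0.50, −0.51 and −0.52. A change of scaling moves all genes by nearly the same amount, so this difference could hardly change. It was −0.25 and −0.38 with limma on RPKM plus 1 and plus 0.1, and −0.72 with no filter. With 1 library left out it was −0.49 to −0.35. Leaving out control replicate 2 gave 9 members higher and 11 lower, where 29.6% and 19.6% of all genes were called. Leaving out RNAi replicate 1 gave 11 higher and 8 lower, with 32.1% and 20.7% of all genes. The same call was kept by 12 of the 27 called members under every alternative in which they were tested. These were lys-8, lys-10, spp-1, spp-17 and spp-23, which fell, and lys-3, ilys-4, spp-13, abf-2, abf-4, abf-5 and abf-6, which rose. Of these, spp-13 and abf-4 were tested in 15 of the 16 alternatives, as a filter of 1 CPM in 3 libraries removed them.

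**Figure D1:**
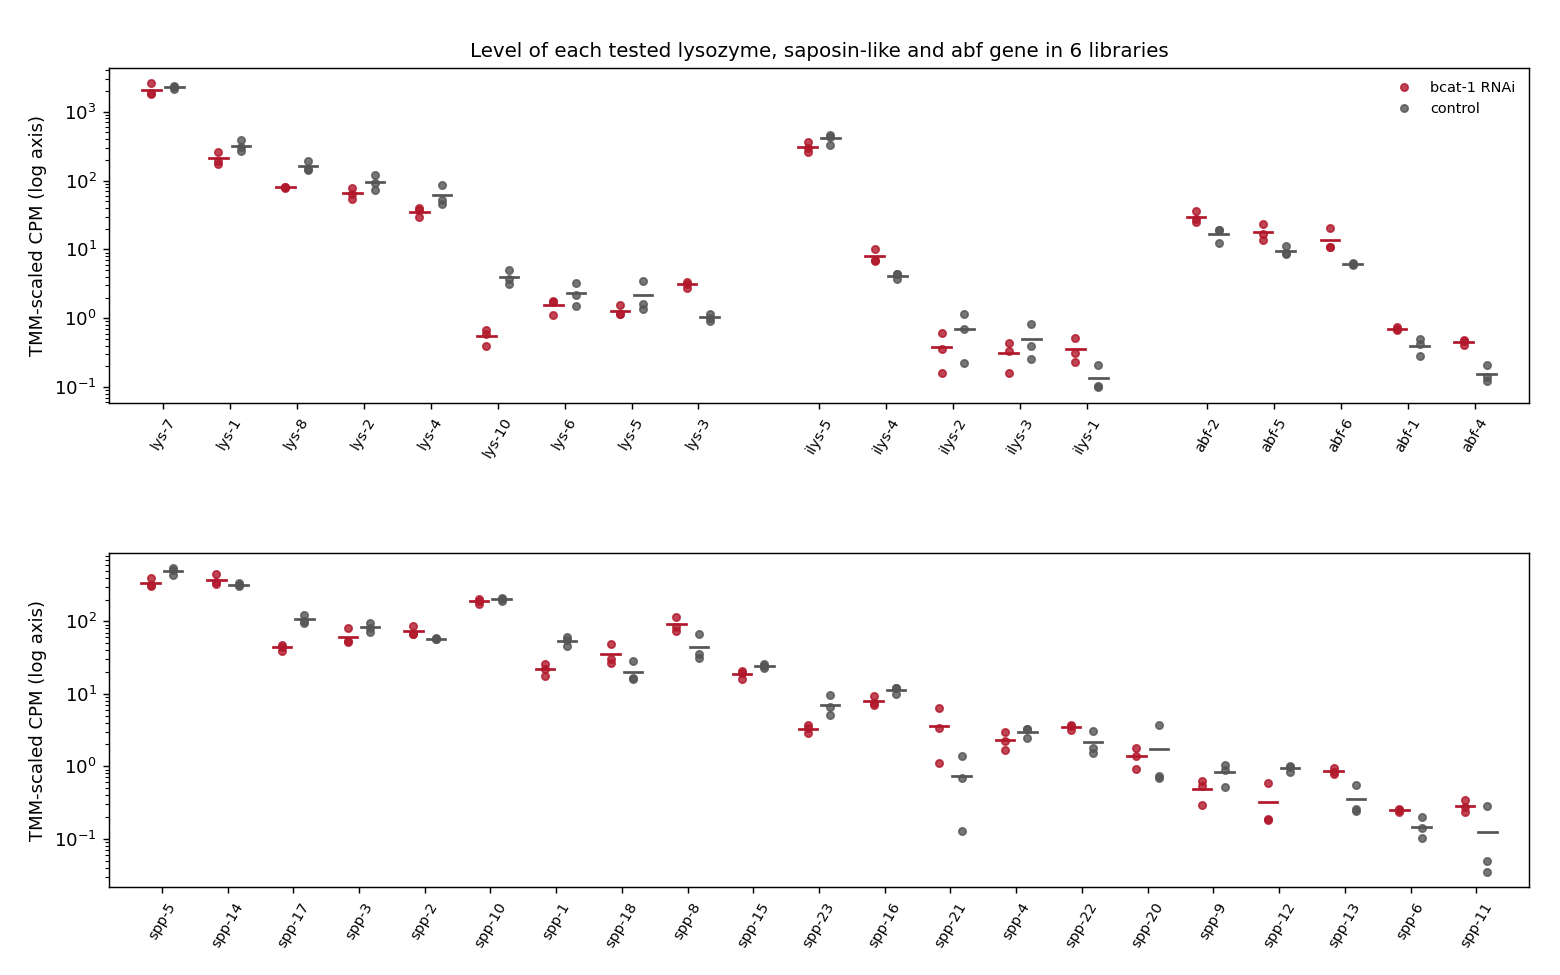
Level of each of the 40 tested members (TMM-scaled CPM, log axis) in 6 libraries, bcat-1 RNAi-labelled ones (red) left of controls (grey), with a bar at each group mean; genes run by mean RPKM within lys, ilys and abf (upper panel) and spp (lower panel). The members span a wide range of levels, and the 3 red points of lys-10, lys-8, spp-17 and spp-1 lie below their grey points, while those of lys-3 and all 5 abf genes lie above.

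Calls went with level in all genes. Among genes at 10 CPM or more, 19.1% were called higher and 44.7% lower, and below 10 CPM 52.3% were called higher and 7.27% lower. Of the 19 members at 10 CPM or more, 6 were called higher and 9 lower. Of the 21 members below it, 8 were called higher and 4 lower. The members below 10 CPM had a median log2 fold change of −0.36, against 0.74 for all genes of that range. At 10 CPM or more the medians were −0.37 and −0.23.

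**Figure D2:**
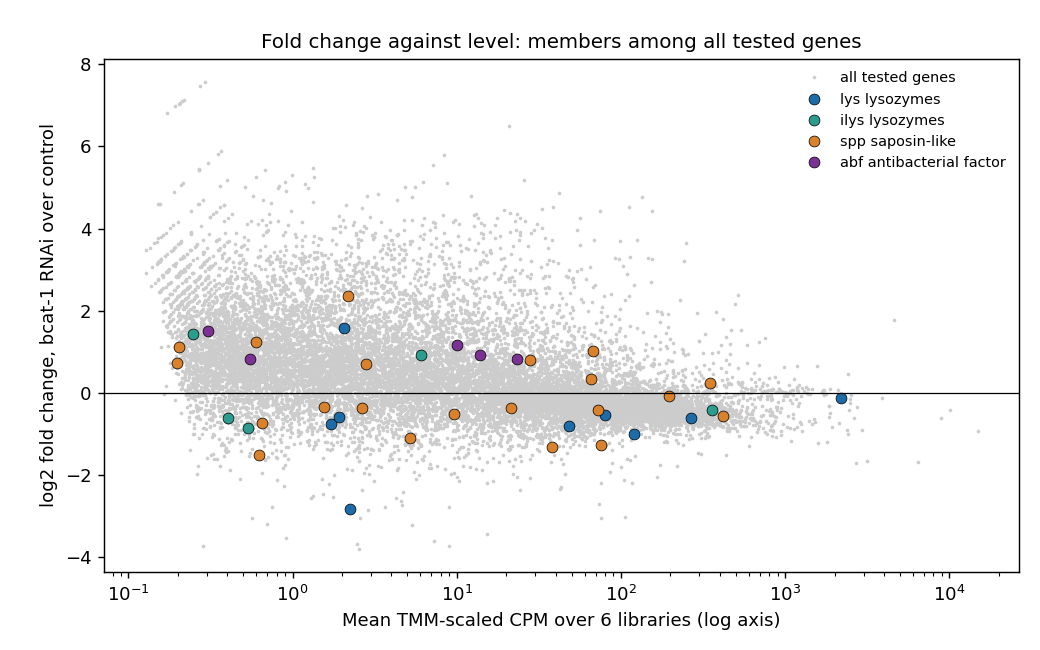
Log2 fold change (bcat-1 RNAi-labelled over control) against mean TMM-scaled CPM (log axis) for all 16391 tested genes (grey) and for the lys, ilys, spp and abf members (coloured). Most genes under 10 CPM lie above 0 and most of the high ones below it, and lys-10 at −2.82 is the lowest of the members.

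Among the lys lysozymes, the 10 genes are measured over a wide range of level. Of the 9 tested, 5 were lower in the bcat-1 RNAi-labelled libraries, 1 was higher and 3 were not called (all genes: 25.6% lower, 36.0% higher). At 10 CPM or more, where lys-1, lys-2, lys-4, lys-7 and lys-8 lay, 44.7% of all genes were lower and 19.1% higher. Below 10 CPM, where lys-3, lys-5, lys-6 and lys-10 lay, 7.27% were lower and 52.3% higher. Lower calls were 2 (22.2%) with library size alone and with both limma fits on RPKM (all genes: 11.9%, 11.8% and 11.7%). There were 3 (33.3%) with upper quartile scaling and without RNAi replicate 1 (all genes: 17.9% and 20.7%). With DESeq2 and with its size factors there were 7 (all genes: 29.3% and 30.6%), where lys-5 and lys-6 were added. Per length, lys-7 was far above the others, with a mean of 2394 RPKM (reads per kilobase of exon and per 1e6 reads, as deposited) over all 6 libraries and 82.2% of the RPKM of the family. Next came lys-1 (237 RPKM), lys-8 (119.7 RPKM), lys-2 (85.9 RPKM) and lys-4 (66.1 RPKM), and lys-10, lys-6, lys-5 and lys-3 had 2.35 to 2.88 RPKM. The first of these, lys-7 (C02A12.4), lies on the minus strand of chromosome V from 3481432 to 3482600 (WBcel235, Ensembl release 115) and encodes an intestinal lysozyme that takes part in defence against pathogens. It was at 1885, 1826 and 2580 CPM in the bcat-1 RNAi-labelled libraries, against 2317, 2405 and 2124.5 CPM in the controls. RNAi replicate 3 lay above all controls and the other RNAi libraries below them. The log2 fold change was −0.12 with a standard error of 0.16 (edgeR adjusted p = 0.522). Without RNAi replicate 3 it was −0.28 and was called lower (adjusted p = 0.0144, against 0.0144 to 0.90 over 16 alternatives). Upper quartile scaling, library size alone and both fits on RPKM turned its sign to positive.

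The largest fall of any member was that of lys-10 (F17E9.11), a gene of 1 exon on the plus strand of chromosome IV from 8332826 to 8333518. It had 17, 32 and 26 reads in the bcat-1 RNAi-labelled libraries, against 126, 106 and 196 reads in the controls. Scaled, it was at 0.395, 0.676 and 0.589 CPM in the bcat-1 RNAi-labelled libraries, against 3.12, 3.67 and 5.05 CPM in the controls, so every bcat-1 RNAi-labelled library was below every control. It was 7.08-fold lower (log2 −2.82, standard error 0.28, edgeR adjusted p = 5.08e-05). The gene lys-8 (C17G10.5, chromosome II from 5586178 to 5587651, plus strand), known as a pathogen-induced intestinal lysozyme, was at 79.9, 77.7 and 81.8 CPM in the bcat-1 RNAi-labelled libraries, against 195, 140.5 and 149 CPM in the controls. Its groups did not overlap, and it was lower by a log2 fold change of −1.02 with a standard error of 0.13 (edgeR adjusted p = 0.000196). A stretch of 38 bases of its exons overlaps an exon of C17G10.13 on the other strand, and reads there cannot be told apart without strand.

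A neighbouring trio on chromosome V held lys-1, lys-2 and lys-3, and its members did not move together. The gene lys-1 (Y22F5A.4, from 10277904 to 10279056), another pathogen-induced lysozyme, was at 195, 177 and 257 CPM in the bcat-1 RNAi-labelled libraries, against 393, 303 and 268 CPM in the controls (log2 −0.62, standard error 0.17, edgeR adjusted p = 0.0130). This call was lost with upper quartile scaling, library size alone and both limma fits (adjusted p = 0.0576, 0.145, 0.150 and 0.148). The gene lys-2 (Y22F5A.5) was also called lower, but its groups overlapped, with 53.9 to 78.0 CPM in the bcat-1 RNAi-labelled libraries and 73.3 to 119.6 CPM in the controls (log2 −0.55, adjusted p = 0.0291). The one lys gene that rose was lys-3 (Y22F5A.6, from 10282100 to 10283544), 625 bases from lys-2. It was at 3.16, 2.73 and 3.40 CPM in the bcat-1 RNAi-labelled libraries, against 1.02, 0.901 and 1.16 CPM in the controls, without overlap. It was 3.00-fold higher (log2 1.58, standard error 0.20, edgeR adjusted p = 0.000202).

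On chromosome IV, lys-4 (F58B3.1), lys-5 (F58B3.2) and lys-6 (F58B3.3) lie side by side on the minus strand. The highest of the trio, lys-4, was at 29.6, 36.9 and 39.9 CPM in the bcat-1 RNAi-labelled libraries, against 51.8, 45.5 and 87.7 CPM in the controls (log2 −0.80, edgeR adjusted p = 0.0145). The log2 fold changes of lys-5 and lys-6 were −0.76 and −0.60 without a call (adjusted p = 0.0845 and 0.108), and for all 3 genes control replicate 3 was the highest library. The call of lys-4 was lost without RNAi replicate 1 (adjusted p = 0.0514, against 0.000133 to 0.143 over 16 alternatives). It was also lost with library size alone and with both limma fits (adjusted p = 0.103, 0.143 and 0.141). That of lys-2 was lost without RNAi replicates 1 or 2 or control replicates 1 or 2 (adjusted p = 0.0578, 0.0789, 0.0986 and 0.0765, against 0.00136 to 0.273 over 16 alternatives). Upper quartile scaling, library size alone and the filter of 1 CPM in 3 libraries ended it too (adjusted p = 0.112, 0.251 and 0.072), as did both limma fits (adjusted p = 0.273 and 0.271). The gene lys-9 was not tested and had 5, 4 and 11 reads in the bcat-1 RNAi-labelled libraries, against 3, 3 and 3 reads in the controls.

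**Figure D3:**
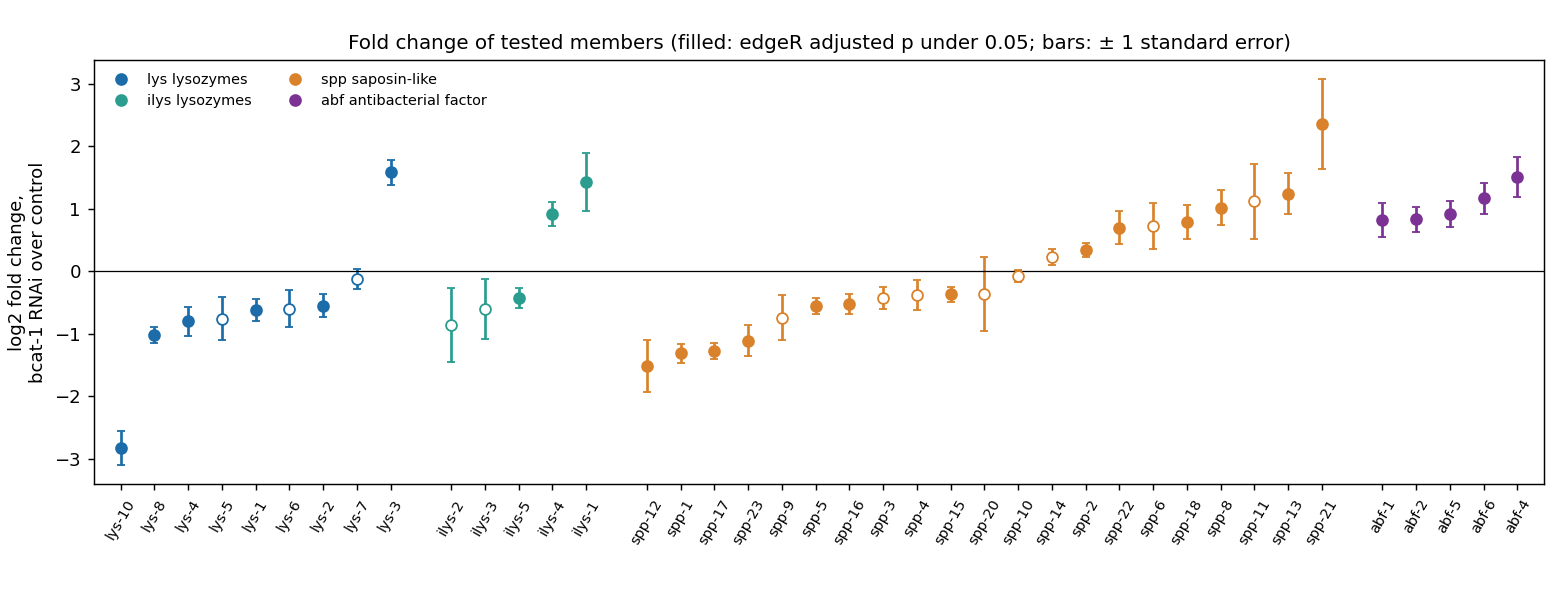
Log2 fold change (bcat-1 RNAi-labelled over control) of the 40 tested members by family, in rising order within each family; bars are ± 1 standard error and filled points have an edgeR adjusted p under 0.05. Of the lys genes 1 filled point is above 0 and 5 are below, the spp genes have 6 above and 7 below, and all 5 abf genes are filled and above 0.

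The invertebrate-type lysozymes were split, with 2 of 5 called higher and 1 lower (all genes: 36.0% and 25.6%). Nearly all of the family's transcript was ilys-5 (F22A3.6, chromosome X from 6533490 to 6536840, minus strand), at 97.1% of the summed RPKM and a mean of 348 RPKM. Its level was 294, 257 and 366 CPM in the bcat-1 RNAi-labelled libraries, against 463, 334 and 433 CPM in the controls. RNAi replicate 3 lay above control replicate 2, so the groups overlapped. The log2 fold change was −0.43 with a standard error of 0.16 (edgeR adjusted p = 0.0426), and the call was lost in 9 of 16 alternatives, the adjusted p lying between 0.00263 and 0.455 over them. Leaving out RNAi replicates 1 or 2 or control replicates 1 or 3 each ended it (adjusted p = 0.0931, 0.125, 0.126 and 0.0895).

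The gene ilys-4 (C55F2.2, chromosome IV from 7895628 to 7897543, minus strand) rose, with 6.95, 6.78 and 9.998 CPM in the bcat-1 RNAi-labelled libraries, against 4.43, 3.74 and 4.35 CPM in the controls. The groups did not overlap (log2 0.92, standard error 0.19, edgeR adjusted p = 0.00300). Low on the scale was the row of ilys-3, ilys-2 and ilys-1 on chromosome IV, of which ilys-3 is known for digesting bacteria in the pharynx and gut. Only 4 to 45 reads fell on any of them in a library. The gene ilys-1 (C45G7.1) had 10, 15 and 23 reads in the bcat-1 RNAi-labelled libraries, against 4, 6 and 4 reads in the controls, and its level was 0.232, 0.317 and 0.521 CPM in the bcat-1 RNAi-labelled libraries, against 0.0991, 0.208 and 0.103 CPM in the controls. It was called higher (log2 1.43, standard error 0.46, edgeR adjusted p = 0.0231). The call was lost without RNAi replicate 3, control replicate 1 or control replicate 3 (adjusted p = 0.0653, 0.0874 and 0.0755, against 0.00712 to 0.155 over 15 alternatives). For ilys-2 (C45G7.2) the levels were 0.163, 0.359 and 0.612 CPM in the bcat-1 RNAi-labelled libraries, against 0.223, 0.693 and 1.16 CPM in the controls. Both groups were so spread that the log2 value of −0.86 had a standard error of 0.59 (adjusted p = 0.225). Without control replicate 1 its value was −1.32 with a call of lower (adjusted p = 0.0425, against 0.0159 to 0.776 over 15 alternatives). That of ilys-3 was −0.60 (adjusted p = 0.298).

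The saposin-like genes formed the largest family, and it moved both ways, with 6 of 21 tested members called higher (28.6%, against 36.0% of all genes), 7 lower (33.3%, against 25.6%) and 8 not called. The count of higher calls was 3 with DESeq2 and without control replicate 1 (all genes: 29.4% and 32.3%). It was 2 without control replicate 2 (all genes: 29.6%). Lower calls were 4 of 21 with library size alone and both limma fits (all genes: 11.9%, 11.8% and 11.7%). Per length 2 genes carried 67.8% of the family, spp-5 with a mean of 1027 RPKM and spp-14 with 919.8 RPKM. Below them were spp-17 (196 RPKM), spp-3 (167 RPKM), spp-2 (149 RPKM), spp-10 (129.7 RPKM), spp-1 (73.2 RPKM), spp-18 (57.8 RPKM), spp-8 (50.7 RPKM) and spp-15 (48.8 RPKM). The other 11 tested genes had means of 0.171 to 13.2 RPKM. The best-known members, the caenopores spp-1 and spp-5, were both called lower, spp-5 not under every setting.

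The caenopore spp-5 (T08A9.9, chromosome X from 7319937 to 7320354, minus strand) permeabilises bacteria in the gut. Its level was 319, 303 and 395 CPM in the bcat-1 RNAi-labelled libraries, against 542, 439.6 and 514 CPM in the controls, without overlap. The log2 fold change was −0.56 with a standard error of 0.13 (edgeR adjusted p = 0.00566). The call was lost with library size alone and with both limma fits (adjusted p = 0.116, 0.138 and 0.127). The gene spp-14 (K09F5.3, chromosome X from 7725979 to 7726383, plus strand) did not pass the test, with 352, 331 and 447 CPM in the bcat-1 RNAi-labelled libraries, against 314, 309.8 and 342 CPM in the controls (log2 0.23, standard error 0.13, adjusted p = 0.141). It gained a call of higher under upper quartile scaling, library size alone and both limma fits (adjusted p = 0.0427, 0.0203, 0.0345 and 0.0305). In the bcat-1 RNAi-labelled libraries spp-5 was below spp-14 in RPKM in every library (829, 804 and 1125.5 RPKM for spp-5, against 958, 922 and 1336 RPKM for spp-14). In the controls it was above spp-14 in every library (1252, 958 and 1194 RPKM for spp-5, against 760.5, 708 and 833 RPKM for spp-14). The order of the pair thus differed between the groups, and this was not tested.

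The caenopore spp-1 (T07C4.4, chromosome III from 10355098 to 10355668, minus strand), expressed in the intestine, fell without overlap of the groups. It was at 17.8, 21.98 and 25.5 CPM in the bcat-1 RNAi-labelled libraries, against 54.8, 46.4 and 60.7 CPM in the controls (log2 −1.31, standard error 0.15, edgeR adjusted p = 0.000137). Its exons overlap those of T07C4.3 on the other strand by 19 bases. The neighbours spp-17 (C54G6.5) and spp-23 (Y34D9A.11), 1666 bases apart on the plus strand of chromosome I, fell by similar amounts. The level of spp-17 was 47.8, 44.7 and 39.0 CPM in the bcat-1 RNAi-labelled libraries, against 124, 95.6 and 99.9 CPM in the controls (log2 −1.28, standard error 0.13, edgeR adjusted p = 5.54e-05). That of spp-23 was 3.69, 2.87 and 3.33 CPM in the bcat-1 RNAi-labelled libraries, against 9.73, 6.58 and 5.02 CPM in the controls (log2 −1.11, standard error 0.24, adjusted p = 0.00406). Neither pair of groups overlapped.

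The largest fall in the family was that of spp-12 (T22G5.7, chromosome V from 13889816 to 13890327, plus strand), a pore-forming protein known from defence against Bacillus thuringiensis. It had only 8, 28 and 8 reads in the bcat-1 RNAi-labelled libraries, against 39, 29 and 32 reads in the controls. Its level was 0.186, 0.592 and 0.181 CPM in the bcat-1 RNAi-labelled libraries, against 0.966, 1.005 and 0.824 CPM in the controls, and the groups did not overlap (log2 −1.51, standard error 0.42, edgeR adjusted p = 0.0121). RNAi replicate 2 stood nearest to the controls, and without it the log2 value was −2.34 (adjusted p = 0.00105, against 0.00105 to 0.080 over 15 alternatives). Smaller falls were called for spp-16 (log2 −0.52) and spp-15 (log2 −0.37), both without overlap of the groups. Exons of spp-16 and spp-15 share 170 and 243 bases with F32D8.7 and C48E7.6 on the other strand, so their levels are uncertain.

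Among the saposin-like genes that rose, spp-8 (C28C12.5, chromosome IV from 8481664 to 8483621, plus strand) was the highest with at least a 2-fold change. It was at 84.0, 73.7 and 114 CPM in the bcat-1 RNAi-labelled libraries, against 35.8, 31.0 and 67.3 CPM in the controls (log2 1.02, standard error 0.28, edgeR adjusted p = 0.0110). Its neighbour spp-10, the worm gene most like vertebrate prosaposin, had a log2 fold change of −0.08 (adjusted p = 0.494). The gene spp-13 (F08F1.6, chromosome X from 8417419 to 8418524, minus strand) was at 0.952, 0.824 and 0.771 CPM in the bcat-1 RNAi-labelled libraries, against 0.545, 0.243 and 0.258 CPM in the controls (log2 1.24, standard error 0.33, adjusted p = 0.0101). For both genes the groups did not overlap. The 4 other calls of higher were spp-21 (log2 2.35), spp-18 (log2 0.79), spp-22 (log2 0.70) and spp-2 (log2 0.35).

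The rise of spp-21 had the widest spread of all members. The bcat-1 RNAi-labelled libraries were at 6.36, 3.34 and 1.11 CPM and the controls at 0.694, 1.39 and 0.129 CPM, so RNAi replicate 3 lay below control replicate 2. The standard error of its log2 value was 0.72 (edgeR adjusted p = 0.0190). Without RNAi replicate 1 it was 1.66 and without control replicate 1 it was 2.33, neither with a call (adjusted p = 0.0731 and 0.0506, against 0.00167 to 0.0731 over 16 alternatives), and without control replicate 2 it was 3.10. The groups of spp-18 overlapped too, by RNAi replicate 2 and control replicate 3.

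Several calls in the spp family were lost when 1 library was left out (edgeR adjusted p throughout). The call of spp-8 was lost without control replicate 2 (adjusted p = 0.0609, against 0.000336 to 0.109 over 16 alternatives) and that of spp-16 without RNAi replicate 1 (adjusted p = 0.0607, against 0.000717 to 0.237). For spp-2 leaving out any 1 control replicate ended it (adjusted p = 0.0611, 0.0809 and 0.0679, against 0.00561 to 0.173). For spp-18 the same held of RNAi replicate 3, control replicate 1 and control replicate 2 (adjusted p = 0.125, 0.0992 and 0.146, against 0.00505 to 0.261). For spp-22 it held of each library but control replicate 3 (adjusted p = 0.0761 to 0.154, against 0.00281 to 0.206). For spp-15 it held of RNAi replicates 1 and 3 and control replicates 1 and 2 (adjusted p = 0.0626, 0.0560, 0.0728 and 0.0592, against 0.00885 to 0.365).

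Tested but not called were also spp-3 (log2 −0.42), spp-4 (log2 −0.38), spp-6 (log2 0.72), spp-9 (log2 −0.74), spp-11 (log2 1.12) and spp-20 (log2 −0.36). Of these, spp-3 was called lower without RNAi replicate 3 (log2 −0.65, edgeR adjusted p = 0.00342, against 0.00342 to 0.529 over 16 alternatives). With all 6 libraries, spp-3 was also called lower with DESeq2 size factors, with no filter and with DESeq2 (adjusted p = 0.0133, 0.0131 and 0.00585). Without control replicate 1, spp-9 was called lower (log2 −1.01, adjusted p = 0.0380, against 0.0380 to 0.276 over 15 alternatives). The same omission turned spp-20 to a call of higher (log2 0.93, adjusted p = 0.0451, against 0.0451 to 0.884 over 16 alternatives). That library held 151 reads, and the other controls 21 and 27. Without control replicate 3, spp-11 was called higher (log2 2.61, adjusted p = 0.00579, against 0.00579 to 0.511 over 15 alternatives). The untested spp-7 had 6, 2 and 4 reads in the bcat-1 RNAi-labelled libraries, against 0, 1 and 1 reads in the controls. The untested spp-19 had 6, 9 and 10 reads in the bcat-1 RNAi-labelled libraries, against 4, 0 and 1 reads in the controls, and its exons share 84 bases with twk-10 on the other strand.

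All 5 tested abf genes were called higher, the one family whose calls went 1 way. Of all genes 36.0% were called higher, and 52.3% of those below 10 CPM, where abf-1 and abf-4 lay. The highest was abf-2 (C50F2.10), an antimicrobial peptide gene known from the pharynx, with a mean of 58.0 RPKM and 54.3% of the family's RPKM. It was at 25.2, 27.9 and 36.4 CPM in the bcat-1 RNAi-labelled libraries, against 18.9, 19.1 and 12.2 CPM in the controls (log2 0.83, standard error 0.20, edgeR adjusted p = 0.00610). Beside it on the minus strand of chromosome I, 181 bases away, abf-1 (C50F2.9) was at 0.697, 0.676 and 0.748 CPM in the bcat-1 RNAi-labelled libraries, against 0.495, 0.416 and 0.283 CPM in the controls (log2 0.82, adjusted p = 0.0275). Its call was lost without each library but control replicate 1 (adjusted p = 0.0523 to 0.111, against 0.00460 to 0.163 over 15 alternatives). The model of abf-2 in release 115 runs from 3885631 to 3885888, which is 258 bases, while the deposited RPKM rest on 414 bases, so the model that was counted was longer.

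On the plus strand of chromosome X, abf-5 (T22H6.5, from 12792854 to 12793386) and abf-6 (T22H6.7, from 12794118 to 12794870) lie 731 bases apart. The level of abf-5 was 16.6, 13.8 and 23.6 CPM in the bcat-1 RNAi-labelled libraries, against 8.79, 8.45 and 11.4 CPM in the controls (log2 0.92, standard error 0.21, edgeR adjusted p = 0.00492). That of abf-6 was 10.7, 10.7 and 20.2 CPM in the bcat-1 RNAi-labelled libraries, against 5.895, 6.202 and 6.44 CPM in the controls (log2 1.17, standard error 0.25, adjusted p = 0.00337). In both genes RNAi replicate 3 was the highest of the 6 libraries. On chromosome V abf-4 (Y38H6C.22, from 20557876 to 20558370, minus strand) had 21, 22 and 18 reads in the bcat-1 RNAi-labelled libraries, against 5, 4 and 8 reads in the controls. Its level was 0.488, 0.465 and 0.408 CPM in the bcat-1 RNAi-labelled libraries, against 0.124, 0.139 and 0.206 CPM in the controls (log2 1.51, standard error 0.33, adjusted p = 0.00366). None of the 5 genes had overlapping groups, and 40.2% of all genes had the bcat-1 RNAi-labelled libraries above the controls without overlap. The untested abf-3 had 0, 1 and 2 reads in the bcat-1 RNAi-labelled libraries, against 0, 0 and 0 reads in the controls.

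**Figure D4:**
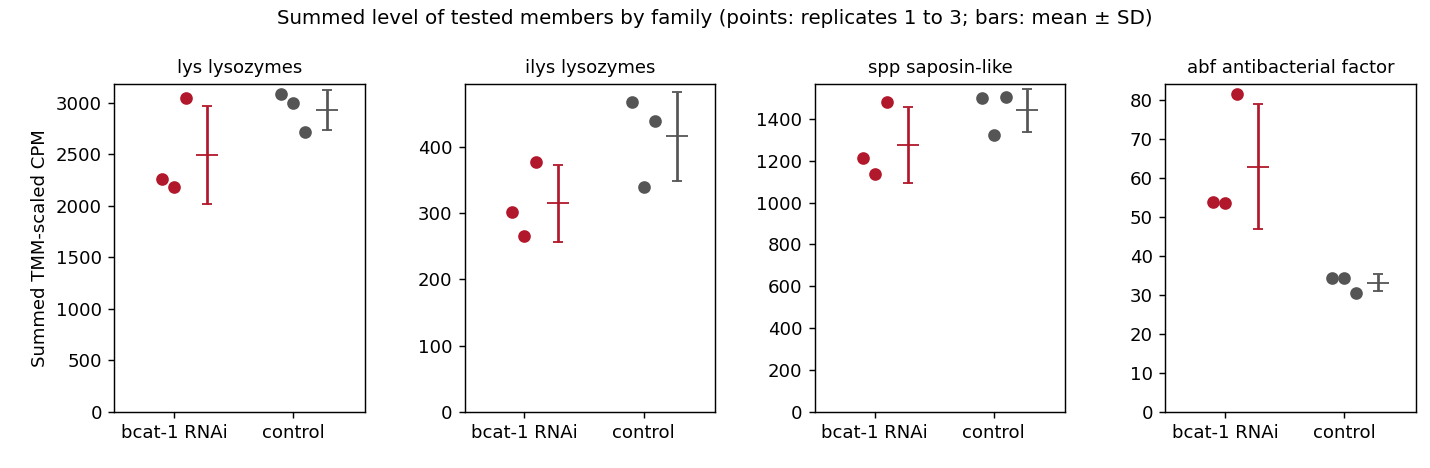
Summed TMM-scaled CPM of the tested members of each family, bcat-1 RNAi-labelled libraries (red) left of controls (grey), with a point for each library and the mean ± SD beside the points (axes start at 0). The abf sums are 53.5 to 81.4 CPM in the bcat-1 RNAi-labelled libraries and 30.5 to 34.3 CPM in the controls, while the groups overlap for lys, ilys and spp, where RNAi replicate 3 is the highest of its group.

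Summed over a family, only the abf genes had groups that did not overlap. Their sum was 62.9 ± 16.1 CPM in the bcat-1 RNAi-labelled libraries and 33.0 ± 2.18 CPM in the controls (SD, n = 3 each). The lys sum was 2493 ± 478 CPM in the bcat-1 RNAi-labelled libraries and 2931 ± 192.5 CPM in the controls. For ilys the sums were 314 ± 57.6 CPM in the bcat-1 RNAi-labelled libraries and 416 ± 67.2 CPM in the controls, and for spp 1276 ± 181 CPM in the bcat-1 RNAi-labelled libraries and 1440 ± 102 CPM in the controls. All members took 0.389% to 0.573% of the reads of a bcat-1 RNAi-labelled library, against 0.413% to 0.474% in the controls. RNAi replicate 3 was the highest of its group for 28 of the 40 members (70.0%), against 44.4% of all genes. RNAi replicate 2 was the lowest for 21 members (52.5%), against 31.7% of all genes.

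The members lie close together on the chromosomes, 26 of the 44 having another member within 5000 bases, in 10 groups. In 3 of these groups all tested members were called and moved 1 way: spp-17 and spp-23 fell, and abf-1 with abf-2 and abf-5 with abf-6 rose. In 2 groups neighbours were called in opposite directions. One was lys-1, lys-2 and lys-3, and the other held spp-3, spp-2, spp-6, spp-4 and spp-5 on chromosome X, where spp-2 rose and spp-5 fell. The level of spp-2 (T08A9.12, from 7315995 to 7316818) was 67.7, 66.9 and 85.3 CPM in the bcat-1 RNAi-labelled libraries, against 58.9, 56.3 and 57.9 CPM in the controls. In 4 further groups 1 member was called and its neighbours were not: ilys-1, spp-8, lys-4 and spp-21. Neighbours were not tested against each other. Whether neighbours share sequence was not examined here, and reads that map to more than 1 place were not counted.

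**Figure D5:**
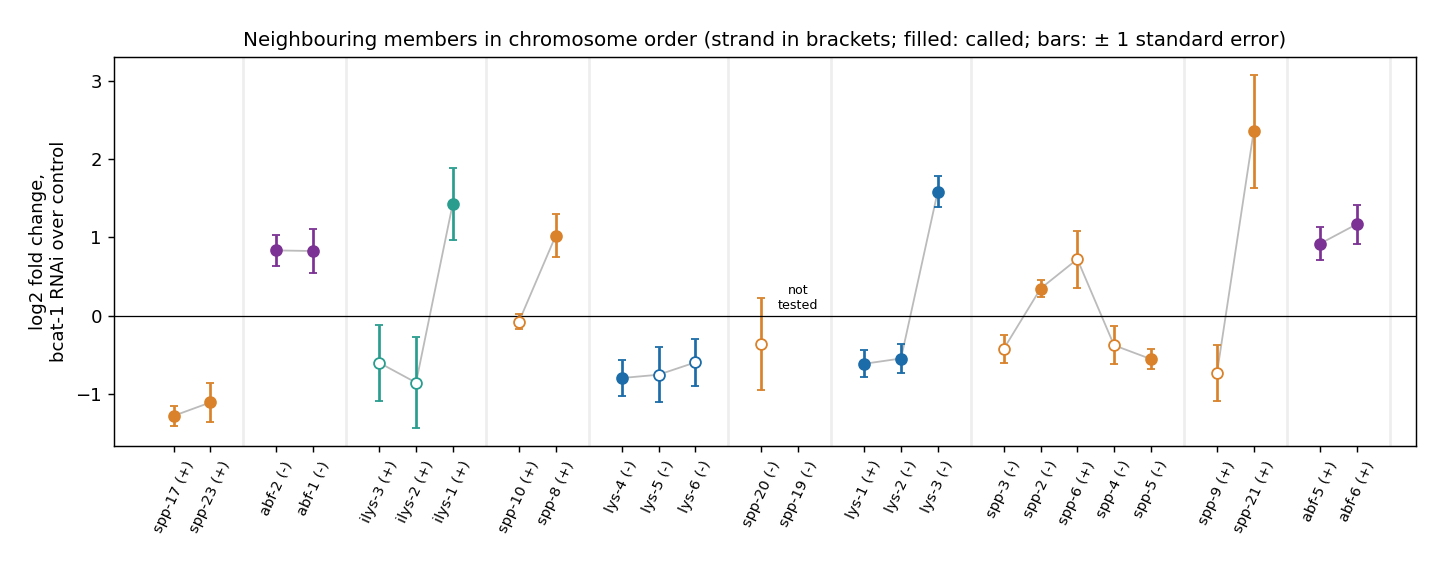
Log2 fold change (bcat-1 RNAi-labelled over control) of the 26 members that have another member within 5000 bases, in chromosome order within each of 10 groups, with the strand in brackets; bars are ± 1 standard error, filled points have an edgeR adjusted p under 0.05, and spp-19 was not tested. The points of spp-17 and spp-23 and of both abf pairs lie at similar heights, while lys-3 at 1.58 stands above its neighbours at −0.62 and −0.55.

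Genes that control intestinal defence were called in both directions, and their counts moved with the settings. Of 24 regulators known from pathways that act on such effectors, 15 were called higher (62.5%, against 36.0% of all genes) and 6 lower (against 25.6%), and the median log2 fold change was 0.39. In the p38 kinase cascade tir-1 (log2 2.63), its upstream adaptor, nsy-1 (log2 0.34) and sek-1 (log2 0.36) rose, the kinase pmk-1 was not called (log2 0.16) and its target factor atf-7 fell (log2 −0.38). The level of tir-1 was 227, 228 and 164 CPM in the bcat-1 RNAi-labelled libraries, against 46.5, 23.7 and 29.3 CPM in the controls. In the DBL-1 pathway, a TGF-beta pathway of worms, the ligand dbl-1 (log2 1.25) and the Smad genes sma-2 (log2 0.81), sma-3 (log2 0.64) and sma-4 (log2 0.41) rose, and the receptor gene sma-6 was not called (log2 0.12). The transcription factor genes zip-2 (log2 1.97), pqm-1 (log2 1.20), hlh-30 (log2 0.61), elt-2 (log2 0.45) and elt-7 (log2 0.42) rose, as did bar-1 (log2 0.53), tpa-1 (log2 0.43) and fshr-1 (log2 0.31).

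Among the regulators called lower were the insulin receptor gene daf-2 (log2 −0.66), the kinase genes mpk-1 (log2 −0.58), mek-2 (log2 −0.45) and dkf-2 (log2 −0.29), and the stress factor skn-1 (log2 −0.32). The forkhead gene daf-16, which acts below daf-2 and on lys-7, was not called (log2 −0.13). With DESeq2 size factors 8 regulators were higher (33.3%, against 32.7% of all genes) and 6 lower (against 30.6%), so that the share of higher calls was then at the background. Upper quartile scaling gave 15 higher and 2 lower (all genes: 40.4% and 17.9%), and library size alone 16 and 1 (all genes: 44.7% and 11.9%). Without RNAi replicate 1 or 2 the count of higher calls was 8 in each case (all genes: 32.1% and 32.9%), and without control replicate 1 or 2 that of lower calls was 3 and 2 (all genes: 22.1% and 19.6%). Calls near the threshold were those of elt-2, elt-7 and fshr-1 (edgeR adjusted p = 0.0483, 0.0474 and 0.0475, lost in 8, 9 and 9 of 16 alternatives), daf-2 (adjusted p = 0.0498, lost in 8), sek-1 (adjusted p = 0.0381, lost in 8) and tpa-1, mek-2, skn-1 and dkf-2 (adjusted p = 0.0364, 0.0361, 0.0247 and 0.0344, each lost in 7). The calls of nsy-1 and sma-4 were each lost in 5 and that of atf-7 in 3, and pmk-1 was called higher without RNAi replicate 3 (adjusted p = 0.0163, against 0.0126 to 0.989 over 16 alternatives). The calls of tir-1, zip-2, dbl-1, pqm-1, sma-2, sma-3, hlh-30, bar-1 and mpk-1 were kept in all 16.

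Of 17 immune effector genes outside the families, 8 were called lower (47.1%, against 25.6% of all genes) and 3 higher (17.6%, against 36.0%), and the median was −0.67, against 0.15 over all genes. Those called lower were the thaumatin genes thn-2 (log2 −2.21) and thn-1 (log2 −1.88), dod-22 (log2 −2.51), dod-17 (log2 −1.78), dod-24 (log2 −1.13), T24B8.5 (log2 −1.70), C17H12.8 (log2 −1.30) and K08D8.5 (log2 −1.24). The infection response gene irg-1 (log2 1.80), which is controlled by zip-2, and the C-type lectin genes clec-60 (log2 1.64) and clec-67 (log2 0.81) rose. The genes irg-4, irg-5, irg-6, F49F1.6, clec-85 and fmo-2 were not called. Of these, irg-5 was called lower with DESeq2 size factors, with no filter and with DESeq2. Leaving out control replicate 3 gave calls to fmo-2 and irg-5. Without it fmo-2, at 72.6, 52.4 and 54.8 CPM in the bcat-1 RNAi-labelled libraries, against 10.4, 11.05 and 73.1 CPM in the controls, was called higher (edgeR adjusted p = 1.59e-05, against 1.59e-05 to 0.549 over 16 alternatives), and irg-5 lower (adjusted p = 0.000462, against 0.000462 to 0.465). With an adjusted p of 0.0502, irg-6 was called higher in 9 of 16 alternatives, and F49F1.6 was without RNAi replicate 2 (adjusted p = 0.0356, against 0.0356 to 0.496). The call of clec-67 was lost in 4 alternatives, among them the fits without RNAi replicate 2, control replicate 1 or control replicate 2 (adjusted p = 0.0650, 0.0556 and 0.0533, against 0.00430 to 0.0819). Summed over the 17 genes, the level was 187 to 210 CPM in the bcat-1 RNAi-labelled libraries and 370 to 451 CPM in the controls.

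Marker genes of tissues were also called between the groups, in short lists whose counts stand beside 36.0% higher and 25.6% lower of all genes. Of 8 intestine markers 4 were called higher and 1 lower, and their sum was 562 to 747 CPM in the bcat-1 RNAi-labelled libraries, against 675 to 755 CPM in the controls. Most of this sum was asp-1, which was not called, at 285 to 416 CPM in the bcat-1 RNAi-labelled libraries, against 378 to 436 CPM in the controls. Of 6 pharynx markers 5 were higher, with a sum of 155 to 192 CPM in the bcat-1 RNAi-labelled libraries, against 90.2 to 145 CPM in the controls. Without control replicate 2 the count of pharynx markers called higher was 3 (all genes: 29.6%). All 5 germline markers were lower, with 1676 to 2388 CPM in the bcat-1 RNAi-labelled libraries, against 3654 to 4471 CPM in the controls. Each germline marker lay at 10 CPM or more, where 44.7% of all genes were called lower. Of 5 neuron markers 4 were higher, with 323 to 367 CPM in the bcat-1 RNAi-labelled libraries, against 264 to 275 CPM in the controls. Most of this sum was snb-1, which was not called, at 220 to 253 CPM in the bcat-1 RNAi-labelled libraries, against 227 to 237 CPM in the controls. Of 4 epidermis markers 2 were higher, of 5 body muscle markers 1 was higher and 3 lower, and of 3 coelomocyte markers 1 was lower. Their sums in the bcat-1 RNAi-labelled libraries were 217 to 278 CPM (epidermis), 233 to 347 CPM (body muscle) and 7.59 to 8.502 CPM (coelomocyte), against 243 to 284 CPM, 343 to 448 CPM and 9.58 to 10.5 CPM in the controls. No marker was at 0. The part of these shifts in the results on lysozymes, saposin-like proteins and abf genes was not tested.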

How the data were processed

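RNA-seq of 6 libraries was analysed, 3 labelled bcat-1 RNAi and 3 labelled control. The authors sequenced short single reads from TruSeq libraries, which do not record strand, mapped them with TopHat2 2.0.6 to WBcel235 and deposited whole-number counts of uniquely mapped reads per gene from featureCounts, whose version is not given in the sources used here. They also deposited RPKM made from these counts, and all 135472 values checked implied a whole exon length within 0.01 base. The submitters' processing notes name CASAVA too.

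Counts were filtered with filterByExpr, scaled with edgeR's TMM factors (trimmed mean of M values) and compared by the two-sided quasi-likelihood test of edgeR 4.0.16 in R 4.3.3, with Benjamini-Hochberg adjustment over all 16391 genes tested and calls under 0.05. CPM are TMM-scaled, SD are over 3 libraries a group, and log2 fold changes are bcat-1 RNAi-labelled over control. Standard errors are those of the log2 fold change, from the fit to all 6 libraries. Each is the size of the log2 fold change divided by the square root of the quasi-likelihood F value. Members were ranked by level only as RPKM. The split at 10 CPM, the plot of fold change against level and the sums over families and lists used CPM, which are not corrected for length. Tissue and pathway lists and the members were chosen with earlier results of these data known. Every member is named. Values per library are given for the 3 members of each family with the highest RPKM, called members with at least a 2-fold change and no overlap, the largest fall of a family, and the highest member not called; those of lys-4, abf-1, spp-2, spp-21, tir-1, fmo-2 and the untested members, and the ranges of lys-2 and spp-20, were added after their values were seen. Alternatives were other scalings and filters, a likelihood ratio test, DESeq2 1.42.0, limma 3.58.1 on log2 of RPKM plus 1 or 0.1, and leaving out each library. Positions come from Ensembl release 115, whose gene models can differ from those counted. Protein and promoter sequences were not analysed here.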

Additional observations from a re-analysis of the deposited data

How the results depend on the processing

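For the 40 tested members, 630 single values were compared with the values given above, of which 514 kept their direction and side of the threshold, 80 lost a call, 23 gained one and 13 changed sign. Called members changed sign in none of the alternatives run. The count of members higher was 14 and became 9 with DESeq2 (all genes: 29.4%). The count lower was 13 and became 8 with upper quartile scaling (all genes: 17.9%). It became 6 with library size alone and with limma at either pseudocount (all genes: 11.9%, 11.8% and 11.7%). With DESeq2 and with its size factors it rose to 16 (all genes: 29.3% and 30.6%). With 1 library left out the counts were 9 to 12 higher and 8 to 14 lower (all genes: 29.6% to 34.3% and 19.6% to 26.5%). Regulators higher were 8 (33.3%) with DESeq2 size factors, with no filter and with DESeq2 (all genes: 32.7%, 22.6% and 29.4%). They were 8 to 15 with 1 library left out (all genes: 29.6% to 34.3%). Regulators lower were 2 with upper quartile scaling (all genes: 17.9%) and 3 with a filter of 1 CPM in 3 libraries (all genes: 25.1%). There was 1 with library size alone and with limma at either pseudocount (all genes: 11.9%, 11.8% and 11.7%). With 1 library left out there were 2 to 6 (all genes: 19.6% to 26.5%). All genes lower were 1947 with library size alone, and 1934 and 1918 with limma at pseudocounts 1 and 0.1. Signs changed for 3 members without a call. The log2 value of lys-7 was 0.025 with upper quartile scaling, 0.14 with library size alone and 0.11 with limma at either pseudocount. That of spp-10 was 0.063, 0.17, 0.17 and 0.17 in these settings and 0.0064 with the 1 CPM filter. That of spp-20 was 0.13 and 0.31 with limma at pseudocounts 1 and 0.1, −0.77 to 0.93 with 1 library left out (0.93 without control replicate 1), and 0.95 without control replicate 1 and RNAi replicate 3, which were left out together after the data were seen. The median of the spp family was −0.36 and became positive with limma, at 0.13 and 0.17. The median of the ilys family became 0.33 with the 1 CPM filter, which left 2 genes. The cause was not tested. No paired analysis was possible because the labels give no replicate numbers that the groups share, and the numbers used here only name the libraries. Depth limits the genes with fewer than 30 reads a library, such as ilys-1, ilys-3, spp-6, spp-11 and abf-4.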
